A study of Mus musculus with 40 samples.

Results

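The late phase of the response to CpG, from 24 to 48 h, was compared between B cells that lacked Bank1 (Bank1-/-) and B cells that carried it (WT). The quantity examined was a difference of differences on the log2 scale, namely the 24 to 48 h change in Bank1-/- minus the 24 to 48 h change in WT. Of the 40 Illumina bead arrays of the study, 20 entered, chosen by sample title as the groups WT 24 h, WT 48 h, Bank1-/- 24 h and Bank1-/- 48 h with 5 arrays each. No array of an earlier time was used, and 8861 genes were tested.

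All 4 groups were cultures of mouse splenic B cells, purified by negative selection on magnetic beads and given CpG, so the controls carried the stimulus too. The Bank1-/- mice had been backcrossed to C57BL/6. The labels name littermates (Bank1+/+) and purchased C57BL/6J mice as WT, and do not say which of them gave the arrays. They call the 5 arrays of a group biological replicates without saying whether a number stands for an animal, and no culture without CpG at 24 or 48 h was analysed here, so time in culture and CpG cannot be told apart.

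BANK1 is a scaffold protein of B cells that binds signalling proteins such as the kinase LYN and the inositol trisphosphate receptor, and variants of the human gene have been linked to lupus. CpG is DNA of a bacterial type that Toll-like receptor 9 senses in the endosome. The receptor signals through MYD88 to NF-kB and the p38 kinases, and a stimulated B cell grows, divides, secretes cytokines such as IL-6 and may turn into an antibody-secreting cell. MNK kinases, which p38 activates, phosphorylate the cap-binding protein eIF4E. The study's title and design set these responses against the loss of Bank1, and the late phase asks whether both genotypes leave the early growth state in the same way.

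The arrays differed in brightness. Mean raw intensity ran from 227.7 to 539.9 and between 11744 and 16621 of 45281 probes were detected, that is, brighter than the 99th percentile of olfactory receptor probes on the same array. The first principal component separated 24 h from 48 h and held 80.1% of the variance. On the second component, with 7.85%, Bank1-/- 24 h replicates 2 and 5 lay apart at -27.0 and -24.3, and these were the dimmest arrays of that group with mean intensities of 228 and 248. WT 48 h replicate 1 lay apart on the third component at -25.5. The main counts and the results for the genes called for the difference are therefore also given without some or all of these arrays.

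The 24 to 48 h change itself was large in both genotypes. In WT 6050 of the 8861 genes passed an adjusted p of 0.05 (68.3%), of which 3014 rose (34.0%) and 3036 fell (34.3%). In Bank1-/- 5996 passed (67.7%), with 3155 rises (35.6%) and 2841 falls (32.1%). Against this, the difference of the changes passed for 8 genes (0.0903%), 4 with a higher change in Bank1-/- (0.0451%) and 4 with a lower change (0.0451%), while 864 genes had an unadjusted p under 0.05. That last count was 1345 without Bank1-/- 24 h replicate 1, 1554 without replicate 3 and 493 without the dim replicates 2 and 5. Without the dim Bank1-/- 24 h arrays 6280 genes were called in WT, 5747 in Bank1-/- and 6 for the difference, and these 6 were among the 8.

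The split between rises and falls rests on quantile normalization, which gives every array the same distribution of intensities and set the median change of all genes at 0.00 in WT and 0.02 in Bank1-/-. When arrays were only scaled to a common median, the median change of all genes was 0.17 and 0.26, and 67.0% of 4117 calls in WT and 78.3% of 3921 calls in Bank1-/- were rises, against 49.8% and 52.6% in the main setting. With that scaling no gene passed for the difference by limma, and 106 had an unadjusted p under 0.05. Every change below is relative to the average gene.

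The late changes of the genotypes agreed closely across genes. Pearson's r between the WT change and the Bank1-/- change was 0.963 and Spearman's rho was 0.950 over 8861 genes, as a description of these 20 arrays, since genes are not independent and share their arrays. The SD of the change across genes was 0.79 in WT and 0.76 in Bank1-/-, and that of their difference 0.21, beside a median standard error of 0.15 for the difference of 1 gene. With the genes split by mean intensity into 3 equal bins, r was 0.922 in the dimmest, 0.967 in the middle and 0.969 in the brightest. Without the dim Bank1-/- 24 h arrays r was 0.976, and without these and WT 48 h replicate 1 it was 0.980.

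Of the genes called in each genotype, 5221 were called in both, which is 86.3% of the WT calls and 87.1% of the Bank1-/- calls. In 5219 of them the direction was the same, 2719 upward and 2500 downward. The other 2 genes, Erdr1 and 1700048O20Rik, rose in WT and fell in Bank1-/-. Without the dim arrays only Erdr1 did so, since the fall of 1700048O20Rik in Bank1-/- then had an adjusted p of 0.0524, and under median scaling no gene did. Without Bank1-/- 24 h replicate 1 there were 8 such genes and without replicate 3 there were 7. Calls in WT alone numbered 829 and in Bank1-/- alone 775, but these were genes of small change, with median absolute changes of 0.33 and 0.34. The sign in the other genotype was the same for 740 and 686 of them, and the difference itself passed for 1 gene in each set, Eif4e and Gbp2b.

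The intervals describe how far the fitted changes of the genotypes lay apart. They hold for 1 gene at a time under the main normalization, and a probe near the background can hide a difference. The 95% interval of the difference lay wholly within a factor of 1.5 for 6841 genes (77.2%) and within a factor of 2 for 8708 (98.3%). It lay wholly beyond a factor of 1.5 for 7 genes and beyond a factor of 2 for 2 genes, Erdr1 and Slc15a2. Among genes that changed at least 2-fold and were called, 1273 did so in both genotypes, 82.0% of 1553 in WT and 84.9% of 1500 in Bank1-/-, and all 1273 moved the same way. The Bank1-/- change was a median 0.971 of the WT change in these (quartiles 0.887 and 1.06), and 742 of the 1273 had the larger change in WT.

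**Figure D1:**
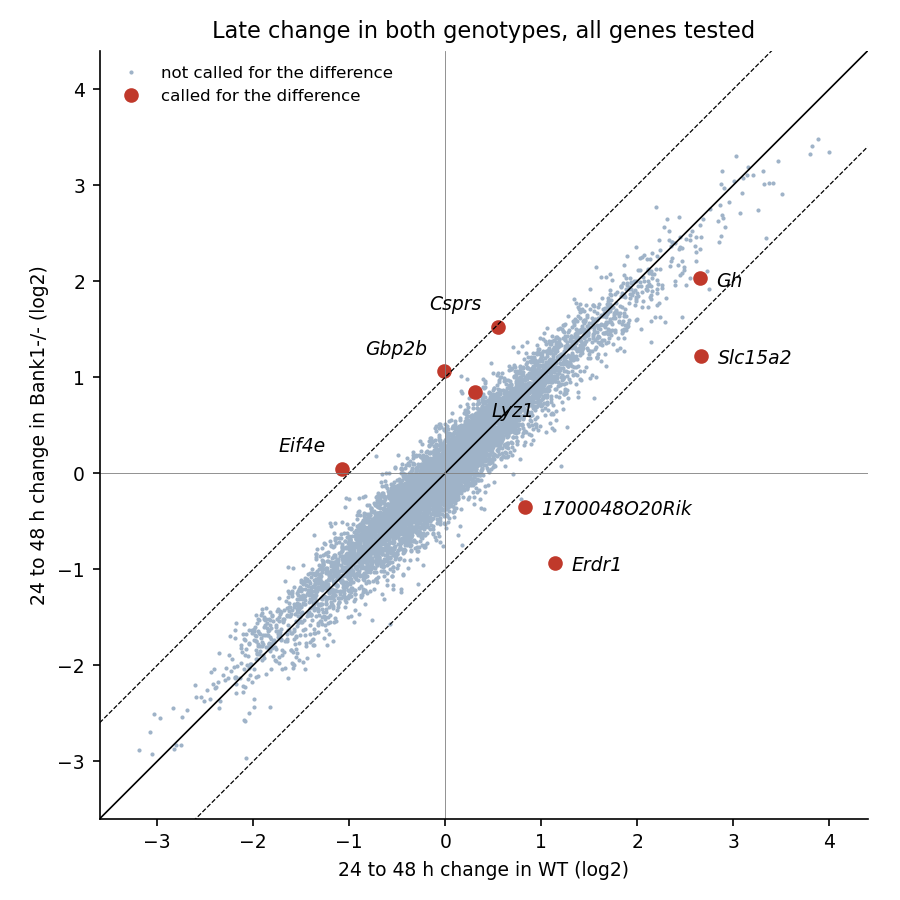
Each point is 1 of 8861 genes, with its 24 to 48 h change in WT on the x axis and in Bank1-/- on the y axis, both in log2 units. The solid line marks equal changes and the dashed lines a difference of 1 log2 unit. Red points are the 8 genes called for the difference. Most genes lie along the solid line (r = 0.963), and Erdr1 lies farthest from it.

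The 8 largest shared rises were the following. Aldoc, the aldolase C of glycolysis, rose 15.9-fold in WT and 10.2-fold in Bank1-/-, but a second Aldoc probe gave log2 changes of 0.53 and 0.46. Ctla4, an inhibitory receptor best known from T cells, rose 14.8-fold and 11.1-fold. H2-Ob, a subunit of the class II regulator H2-O, rose 14.1-fold and 10.6-fold. Vpreb3, a chaperone-like protein of the B lineage, changed by 3.80 and 3.33 on the log2 scale. Il4i1, an amino acid oxidase secreted by B cells and myeloid cells, rose 11.1-fold and 9.51-fold. Cd2, H2-Eb1 and Gmfg completed the 8, with rises of 9.95-fold to 11.4-fold in WT and 7.49-fold to 8.85-fold in Bank1-/-. None of the 8 passed for the difference, the smallest adjusted p being 0.154 for H2-Eb1.

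The 8 largest shared falls came next. Shmt1, a serine hydroxymethyltransferase of the folate cycle, fell 9.11-fold in WT and 7.36-fold in Bank1-/-. Bop1, Mybbp1a and Rrp15, which act in the nucleolus in ribosome production, fell 8.45-fold, 8.21-fold and 6.73-fold in WT and 6.47-fold, 5.68-fold and 7.13-fold in Bank1-/-. Other probes gave smaller falls: the second Bop1 probe changed by -0.21 in WT and -0.57 in Bank1-/-, the other 3 Mybbp1a probes by -1.47 to -1.95 in WT, and the second Shmt1 probe by -1.72 in WT. Hsph1, a heat shock protein of the HSP110 family, fell 8.28-fold and 7.61-fold. Dctd, the deaminase of deoxycytidylate, fell 7.09-fold and 7.33-fold, and Atad3a, a mitochondrial membrane ATPase, changed by -2.81 and -2.83 on the log2 scale. Trmt61a, a tRNA methyltransferase subunit, fell 7.82-fold and 5.86-fold. None of these 8 passed for the difference either, with a smallest adjusted p of 0.330 for Mybbp1a.

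Bank1 itself was checked first. Its level on the log2 scale was 10.20, 10.25, 10.17, 10.28 and 10.10 on the WT 24 h arrays and 11.19, 11.23, 11.47, 11.58 and 11.05 on the WT 48 h arrays. In Bank1-/- it was 7.84, 7.55, 8.08, 7.62 and 7.60 at 24 h and 9.07, 9.11, 9.20, 8.76 and 8.90 at 48 h. Every Bank1-/- array lay below every WT array, yet the probe was detected on all 20. The sources used here do not say which exons were removed, so the probe may lie outside them. The signal rose with time in both genotypes, by 1.10 in WT and 1.27 in Bank1-/-, a difference of 0.17 (95% interval -0.16 to 0.49, adjusted p = 0.719).

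Il6, which encodes the cytokine named in the study's title, fell in both genotypes. Levels were 10.09, 10.19, 9.60, 10.13 and 10.23 in WT at 24 h and 8.38, 7.61, 7.71, 8.07 and 7.56 at 48 h. In Bank1-/- they were 9.59, 9.81, 9.50, 9.20 and 10.13 at 24 h and 7.13, 7.48, 7.64, 7.41 and 7.59 at 48 h. In each genotype all 48 h arrays lay below all 24 h arrays, and the genotypes overlapped at both times. The fall was 4.53-fold in WT and 4.59-fold in Bank1-/-, and the difference of the log2 changes was -0.02 (95% interval -0.50 to 0.46, adjusted p = 0.986).

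Erdr1 showed the largest difference of all genes. The gene, known for its part in red cell differentiation in culture, lies in the repeated pseudoautosomal region of the sex chromosomes, and RefSeq places it at chrX:170010526-170018797 (GRCm38.p6). Its level in WT was 11.20, 11.39, 11.47, 11.29 and 11.27 at 24 h and 11.84, 12.77, 12.55, 12.56 and 12.62 at 48 h. In Bank1-/- it was 12.23, 12.18, 12.25, 12.13 and 12.10 at 24 h and 11.30, 11.36, 11.07, 11.12 and 11.39 at 48 h. The groups did not overlap between times in either genotype, and the genotypes changed places: Bank1-/- was above WT at 24 h and below it at 48 h.

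The WT rise was 2.21-fold and the Bank1-/- fall 1.91-fold, giving a difference of -2.08 ± 0.17 (SE, adjusted p = 8.14e-08). A second Erdr1 probe gave 1.36 in WT and 0.02 in Bank1-/-, a difference of -1.34 that also passed when all probes were tested, so the probes differ over the fall in Bank1-/-. Copies of the gene in a repeated region may be read by the same probe. WT 48 h replicate 1 was the lowest of its group, and without it and the dim arrays the difference was -2.22.

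Slc15a2 encodes the peptide transporter PEPT2, which also carries bacterial muropeptides into cells. Its level in WT was 6.24, 6.15, 6.39, 6.21 and 6.11 at 24 h, detected on 1 of 5 arrays, and 8.75, 8.78, 8.98, 9.11 and 8.80 at 48 h. Bank1-/- arrays gave 6.48, 6.13, 6.67, 6.28 and 6.64 at 24 h, detected on 3 of 5, and 7.83, 7.76, 7.68, 7.55 and 7.49 at 48 h. At 48 h every Bank1-/- array was below every WT array, while at 24 h the genotypes overlapped near the detection limit. The fitted rise was 6.34-fold in WT and 2.33-fold in Bank1-/-, and the difference was -1.44 ± 0.15 (SE, adjusted p = 2.27e-06). Without the dim arrays the difference was -1.52. Since most WT 24 h values lay under the detection threshold, these sizes rest on a baseline that was measured on few arrays.

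**Figure D2:**
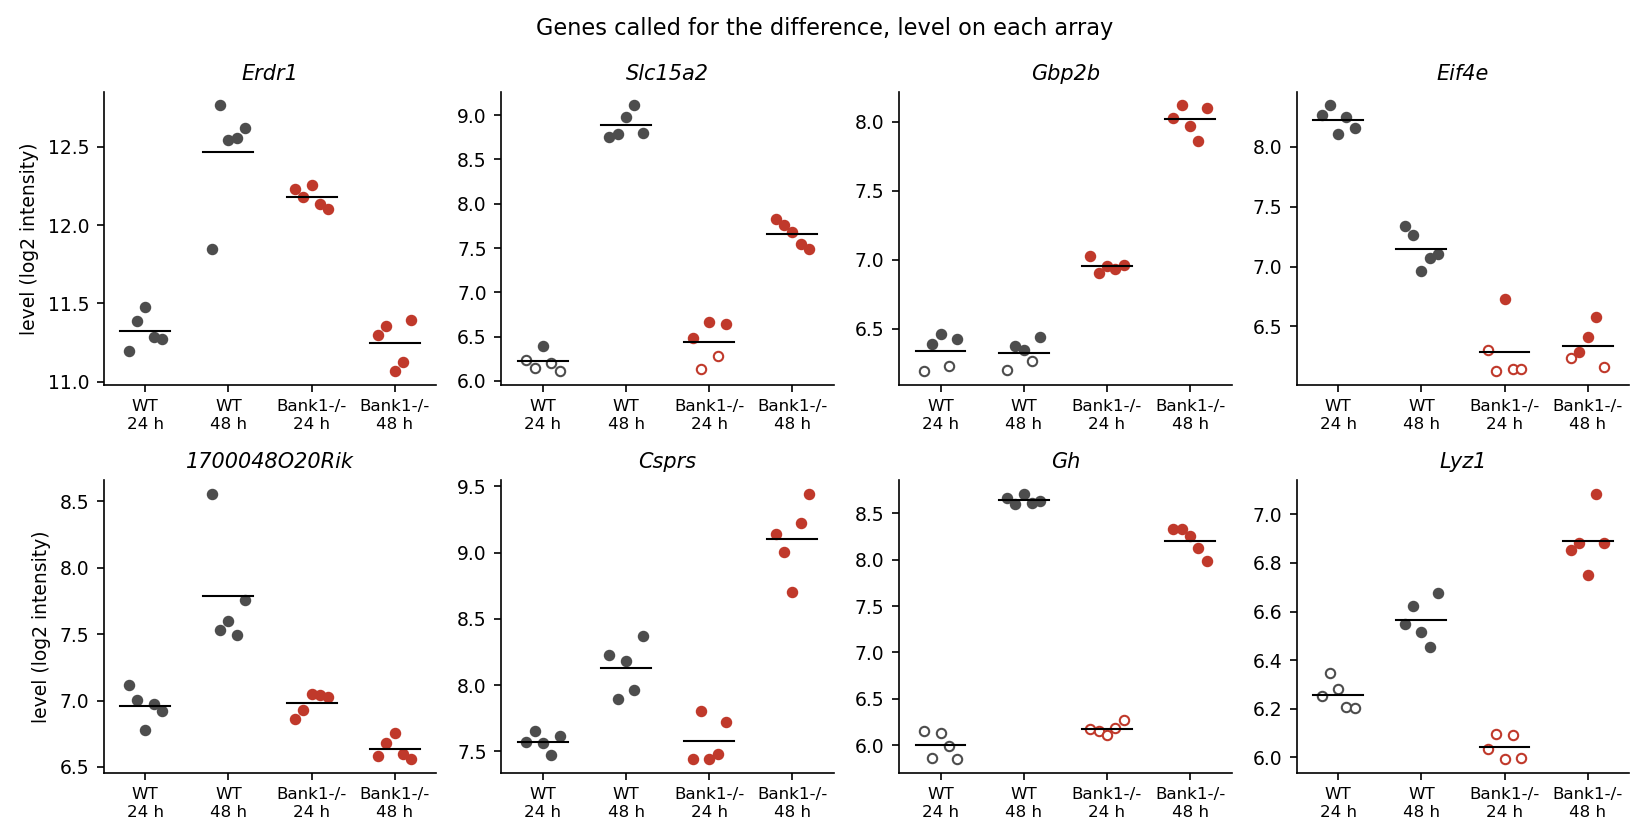
Level of the 8 genes called for the difference on each of the 20 arrays, in log2 intensity on the y axis and by group on the x axis. Filled points were detected, open points were not above the detection threshold of their array, and the line is the mean of 5 arrays. Erdr1 rises in WT and falls in Bank1-/-. Gbp2b rises in Bank1-/- and stays near the threshold in WT. Gh and Lyz1 are open at 24 h in both genotypes.

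A pair of the 8 genes lay close to Bank1 on chromosome 3, which RefSeq places at chr3:136053363-136326141. Eif4e lies at chr3:138526191-138559696 and Gbp2b at chr3:142594816-142619179 (GRCm38.p6), counted from their outermost starts. Within 10 Mb of Bank1 there were 45 tested genes, 0.508% of all, and 2 of the 8 called genes. The other 6 lay elsewhere.

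Eif4e encodes the cap-binding factor of translation initiation. Its level in WT was 8.26, 8.35, 8.10, 8.25 and 8.16 at 24 h and 7.34, 7.27, 6.96, 7.07 and 7.11 at 48 h. The Bank1-/- values were 6.30, 6.13, 6.73, 6.15 and 6.14 at 24 h and 6.24, 6.29, 6.41, 6.58 and 6.16 at 48 h. The probe was thus near the detection limit in Bank1-/-, above it on 1 of 5 arrays at 24 h and 3 of 5 at 48 h, and all Bank1-/- arrays lay below all WT arrays. Eif4e fell 2.10-fold in WT, the Bank1-/- change was 0.05, and the difference was 1.12 ± 0.15 (SE, adjusted p = 0.000337). Without the dim arrays the Bank1-/- change was -0.06 and the difference 1.05. A probe near its floor at both times cannot show a fall.

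Gbp2b encodes an interferon-inducible guanylate-binding protein, a GTPase that acts against intracellular microbes. Its level in WT was 6.19, 6.39, 6.47, 6.23 and 6.43 at 24 h and 6.20, 6.38, 6.35, 6.27 and 6.44 at 48 h, each detected on 3 of 5 arrays. In Bank1-/- it was 7.03, 6.91, 6.95, 6.93 and 6.96 at 24 h and 8.03, 8.12, 7.97, 7.86 and 8.10 at 48 h. All Bank1-/- arrays lay above all WT arrays, and in Bank1-/- the times did not overlap. The probe was near the detection limit in WT at both times, where a fall could not be seen. The rise in Bank1-/- was 2.08-fold, the WT change was -0.01, and the difference was 1.07 ± 0.11 (SE, adjusted p = 2.27e-06). Without the dim arrays the difference was 1.10.

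Other guanylate-binding protein genes beside Gbp2b had other values. Gbp3 rose 4.41-fold in WT and 2.58-fold in Bank1-/-, from levels of 7.98 to 8.22 at 24 h to 10.09 to 10.38 at 48 h in WT and from 8.03 to 8.77 to 9.52 to 9.93 in Bank1-/-. Its difference was -0.77 ± 0.16 (SE, adjusted p = 0.0784), which missed the threshold. A second Gbp3 probe gave a difference of -0.91 and passed when all probes were tested, with an adjusted p of 0.000586. Gbp2 changed by 1.72 in WT and 1.60 in Bank1-/- with a difference of -0.11 (adjusted p = 0.751). The 150 bases before the start that RefSeq's promoter entries use (GRCm38.p6), which lies 31 bases inside the outermost start of Gbp2b and 28 bases inside that of Gbp3, are printed because these family members lie near each other and had differences of 1.07, -0.77 and -0.11, with the core of the interferon-stimulated response element in capitals, searched on both strands as GAAA, any 2 bases and GAAA again.
Gbp2b (chr3:142594697-142594846, plus strand): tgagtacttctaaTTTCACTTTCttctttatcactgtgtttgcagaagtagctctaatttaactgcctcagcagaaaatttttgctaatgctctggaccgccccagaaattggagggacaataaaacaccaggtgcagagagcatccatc
Gbp3 (chr3:142559894-142560043, plus strand): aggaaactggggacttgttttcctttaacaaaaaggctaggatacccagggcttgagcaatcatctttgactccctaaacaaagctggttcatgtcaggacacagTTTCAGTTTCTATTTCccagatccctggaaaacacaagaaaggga
Gbp2 (chr3:142620513-142620662, plus strand): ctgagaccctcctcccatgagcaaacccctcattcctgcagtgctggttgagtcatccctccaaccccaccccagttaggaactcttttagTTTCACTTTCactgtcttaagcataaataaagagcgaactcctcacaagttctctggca

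All 3 stretches held the letters, which occurred in 1.59% of 32851 RefSeq promoters in the same window. The match began 137 bases before the start in Gbp2b, 59 in Gbp2, and 45 and 39 in Gbp3, where both matches overlap. Of 40 tested interferon-inducible genes with a promoter entry, 13 held it. A match is a description of the letters and not a measured binding site.

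Csprs, a gene of the repeated Sp100-rs cluster on chromosome 1, rose in both genotypes and more in Bank1-/-. Its level in WT was 7.57, 7.65, 7.56, 7.47 and 7.62 at 24 h and 8.23, 7.90, 8.18, 7.96 and 8.37 at 48 h. Bank1-/- levels were 7.44, 7.80, 7.44, 7.48 and 7.72 at 24 h and 9.14, 9.00, 8.70, 9.22 and 9.45 at 48 h. The genotypes overlapped at 24 h and did not at 48 h. The rise was 1.47-fold in WT and 2.88-fold in Bank1-/-, a difference of 0.97 ± 0.16 (SE, adjusted p = 0.00633). Without the dim arrays the difference was 1.12. Its probe may read more than 1 copy of the cluster.

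1700048O20Rik, at chr9:121937275-121947016, is a RIKEN transcript. Its level in WT was 7.11, 7.01, 6.78, 6.97 and 6.92 at 24 h and 8.56, 7.53, 7.60, 7.49 and 7.76 at 48 h. Those of Bank1-/- were 6.86, 6.93, 7.05, 7.04 and 7.03 at 24 h and 6.58, 6.68, 6.75, 6.60 and 6.56 at 48 h. The genotypes overlapped at 24 h and were apart at 48 h, with WT 48 h replicate 1 far above the other 4 of its group. The difference was -1.18 ± 0.19 (SE, adjusted p = 0.00456), and it was -1.03 without that array and the dim arrays.

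Gh and Lyz1 were not detected on any 24 h array, so only lower bounds can be given. Gh, the growth hormone gene, had levels of 8.67, 8.60, 8.72, 8.62 and 8.64 in WT at 48 h and 8.33, 8.33, 8.26, 8.13 and 7.99 in Bank1-/- at 48 h, with every Bank1-/- array below every WT array. It rose at least 4.87-fold in WT and at least 3.18-fold in Bank1-/- (adjusted p of the difference = 0.0230). Lyz1, a lysozyme gene with a near-identical copy, Lyz2, that was not among the tested genes, stood at 6.55, 6.62, 6.52, 6.45 and 6.67 in WT and 6.85, 6.88, 6.75, 7.09 and 6.88 in Bank1-/- at 48 h. It rose at least 1.15-fold and at least 1.28-fold (adjusted p of the difference = 0.0302). These calls were the least stable, and both were lost without the dim Bank1-/- 24 h arrays, with adjusted p of 0.0726 for Gh and 0.0679 for Lyz1.

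Below the threshold came Gbp3, Ifi27 and Hbb-bt, each with an adjusted p of 0.0784, and Max with 0.0860. Ifi27, an interferon-inducible mitochondrial protein gene, changed by 1.57 in WT and 2.15 in Bank1-/-. Max, the partner of MYC, changed by -0.72 in WT and 0.18 in Bank1-/-, and like Eif4e its probe was near the floor in Bank1-/- at 24 h, detected on 2 of 5 arrays. The beta-globin genes Hbb-bt and Hbb-bs changed by 1.20 and 0.79 in WT and by 0.08 and -0.27 in Bank1-/-. Their Bank1-/- 24 h levels were highest on dim arrays, 9.10 and 9.27 on replicate 5, and without replicates 2 and 5 their differences were -0.87 and -0.92 in place of -1.13 and -1.06.

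Among the 5 largest differences in each direction, counted over genes called in at least 1 genotype, the only other gene was COX2, the mitochondrial gene of cytochrome oxidase subunit 2. Its level at 24 h in Bank1-/- was 11.21 and 11.17 on the dim replicates 2 and 5 and 12.39 to 13.78 on the others, against 13.09 to 13.80 in WT. The difference of 0.91 (adjusted p = 0.520) became 0.11 without the dim arrays. Nnt, which is disrupted in C57BL/6J mice and so marks the substrain, was 8.46 and 8.10 on those same arrays and 6.55 to 7.32 on the other 3. Its difference of -0.45 (adjusted p = 0.644) became 0.12 without them, and a second Nnt probe gave 0.06. By the main Nnt probe, WT levels were 6.49 to 6.66 at 24 h and 6.18 to 6.51 at 48 h. Bank1-/- levels at 48 h were 6.27 to 7.02. The genotypes overlapped at both times, but the Bank1-/- medians, 7.32 and 6.98, lay above every WT array of the same time. The parts of array quality and of substrain in these values were not tested.

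The shared late changes were then read by gene group. Medians are set beside those of all tested genes, 0.00 in WT and 0.02 in Bank1-/-, and counts beside the shares of all genes called upward and downward given above. The lists group genes by textbook role and were chosen with earlier results of these data known. Over all tested genes the difference was positive for 4916 of 8861 (55.5%), beside which sign counts within a list are to be read. Of 63 named genes with several detected probes, 21 had probes whose WT changes differed by over 1 log2 unit, and the probe with the highest mean is the one given. Among those named below, other probes came near 0, such as for Samhd1 (0.07), Birc2 (0.16), Marcksl1 (0.18), Ung (-0.22), Cd22 (0.24), Bcl2l11 (-0.24) and Tyms (-0.26). Probes of genes with a smaller spread could also lie near 0, as for Tk1 (-0.02) and Cdca8 (-0.09).

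**Figure D3:**
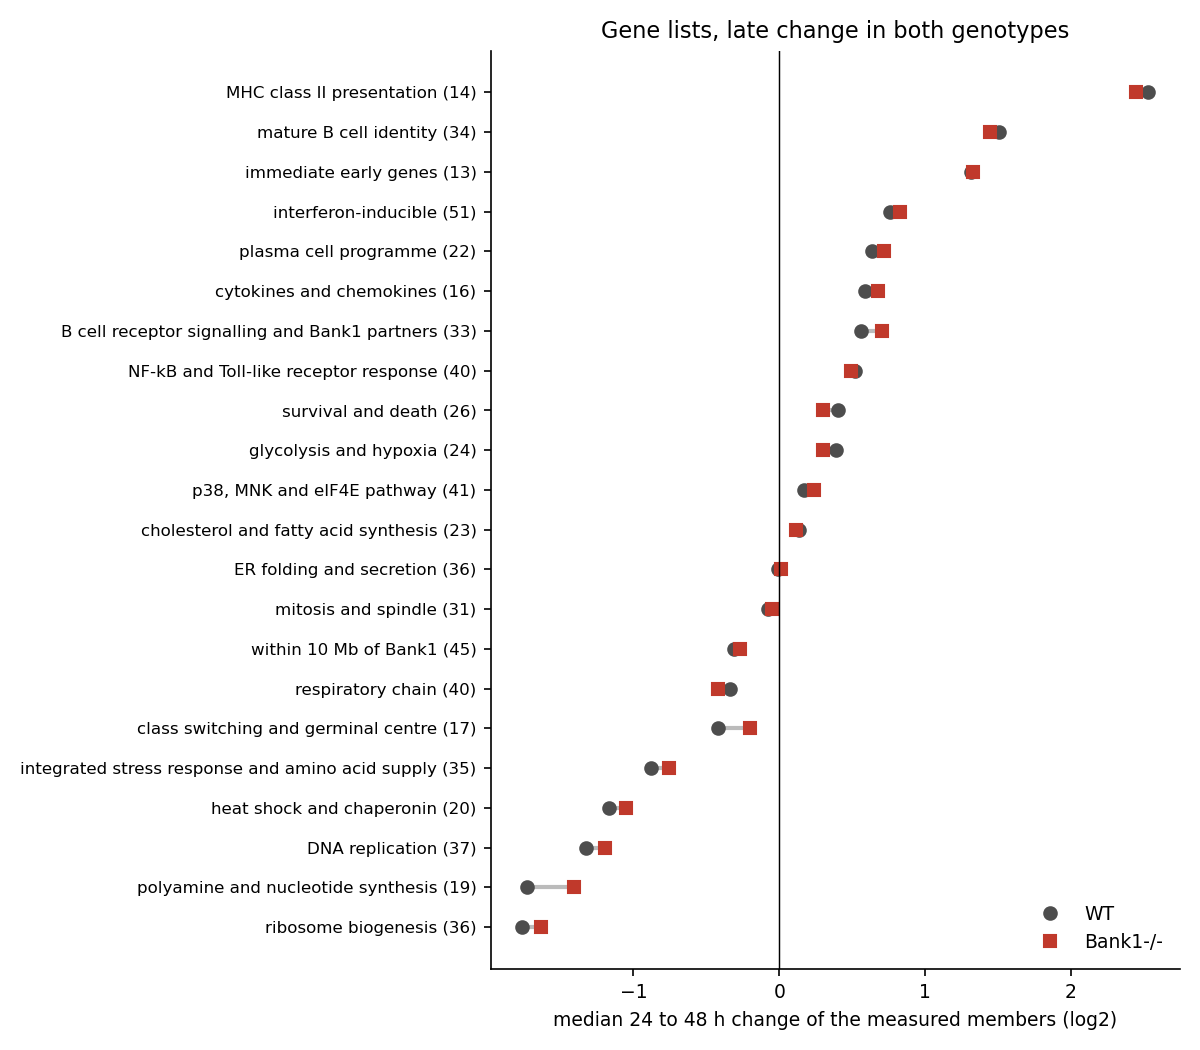
Median 24 to 48 h change, in log2 units on the x axis, of the measured members of each gene list, with the number measured in brackets. Circles are WT and squares Bank1-/-. The lists keep nearly the same order in both genotypes, from MHC class II presentation (2.53 and 2.45) to ribosome biogenesis (-1.76 and -1.63).

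Genes that build ribosomes fell most. All 36 measured ribosome biogenesis genes of 41 listed fell in WT and 34 fell in Bank1-/-, with medians of -1.76 and -1.63. Besides Bop1, Mybbp1a and Rrp15, Rrp1b, a nucleolar protein gene, changed by -2.83 and -2.44. The smallest p of the difference in the list was that of Pes1, a partner of BOP1, with -2.04 in WT, -1.63 in Bank1-/- and an adjusted p of 0.286. The median difference over the list was 0.21, and 24 of 36 differences were positive. Without the dim arrays all 36 fell in both genotypes and the median difference was 0.13.

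Suppliers of polyamines and nucleotides fell with them, 17 of 19 measured genes in each genotype, with medians of -1.73 in WT and -1.41 in Bank1-/-. Srm, spermidine synthase, changed by -2.69 and -2.47. Ppat and Gart, which act in purine synthesis, changed by -2.45 and -2.22 in WT and by -2.35 and -1.94 in Bank1-/-. Umps, which makes uridine monophosphate, changed by -2.29 and -2.16. No member passed for the difference.

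Of 37 measured DNA replication genes, 36 fell and 1, Tk1, rose, in each genotype, with medians of -1.33 and -1.20. Under median scaling 30 fell in WT and 22 in Bank1-/-, where Tk1 was not called. Dut, which removes dUTP, changed by -2.05 and -2.03, and the cyclin gene Ccne2 by -1.94 and -1.67. Mcm10, a replication factor, changed by -1.92 and -1.72, and Tyms, thymidylate synthase, by -1.73 and -1.91. Tk1, thymidine kinase, changed by 0.56 and 0.26 and had the smallest p of the difference in the list, with an adjusted p of 0.482. A second Tk1 probe gave -0.02 in WT and -0.19 in Bank1-/-, so the rise of Tk1 was seen by only 1 of its probes. In Bank1-/- without the dim arrays the 36 falls remained in number and Tk1 was no longer called.

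Mitosis genes did not share that fall. Of 31 measured genes 10 rose and 10 fell in WT, and 5 rose and 11 fell in Bank1-/-, with medians of -0.07 and -0.05 that turned positive under median scaling. Cenpa, the centromeric histone, changed by 1.22 and 1.23 and Nusap1, of the spindle, by 0.86 and 0.79. Ccna2, cyclin A2, changed by -1.19 and -0.97, and Cdca8, of the chromosomal passenger complex, by -0.80 and -0.81. Cdca3 had the smallest p of the difference, with 0.44 in WT, -0.13 in Bank1-/- and an adjusted p of 0.418.

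Chaperones and the stress response to amino acid supply also fell. Of 20 measured heat shock and chaperonin genes 19 fell in WT and 16 in Bank1-/-, where 1, Bag3, rose. Hsph1 led, followed by Cct6a, of the chaperonin ring, with -2.17 and -2.01, Hspd1, the mitochondrial HSP60, with -2.10 and -1.72, and Hsp90aa1, with -2.08 and -1.73. The difference was positive in 19 of 20 members with a median of 0.29, but none passed, the smallest adjusted p being 0.370 for Hspa4l. Without the dim arrays 15 of 20 differences were positive, the median was 0.11, and Bag3 was no longer called.

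Among 35 measured genes of the integrated stress response and amino acid supply, 27 fell and 6 rose in WT, and 25 fell and 5 rose in Bank1-/-, with medians of -0.88 and -0.75. Under median scaling 18 fell in WT and 14 in Bank1-/-. The aminoacyl-tRNA synthetase genes Iars, Lars and Mars1 changed by -2.13, -1.96 and -1.97 in WT and by -1.83, -1.88 and -1.75 in Bank1-/-. Mthfd2, of mitochondrial folate metabolism, changed by -2.03 and -1.98. Cars, another synthetase gene, had the smallest p of the difference, with an adjusted p of 0.462.

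MHC class II genes rose most of the lists. These genes encode the molecules that show peptides to CD4 T cells, the invariant chain CD74 and the loading factors H2-DM and H2-O, and the coactivator CIITA turns them on. All 14 of 14 rose in both genotypes, with medians of 2.53 in WT and 2.45 in Bank1-/-. H2-Eb1, a class II beta chain, had levels of 9.81 to 10.06 at 24 h and 13.18 to 13.63 at 48 h in WT, and 10.31 to 10.82 and 13.19 to 13.56 in Bank1-/-. The WT and Bank1-/- arrays were thus apart at 24 h and overlapped at 48 h. Cd74 changed by 3.26 and 2.74, and Ciita by 2.76 and 2.75.

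The difference was negative for 12 of the 14, with a median of -0.38, and no member passed. The nearest were H2-DMb1 at -0.52 (95% interval -0.77 to -0.26, adjusted p = 0.151) and H2-Eb1 at -0.60 (95% interval -0.91 to -0.30, adjusted p = 0.154). H2-Aa, the alpha chain of the other class II molecule, gave 0.02 (95% interval -0.37 to 0.40) and Ciita -0.01 (95% interval -0.29 to 0.26). All 14 intervals lay within a factor of 2. Without the dim arrays the difference was negative for 13 of 14 with a median of -0.31, and under median scaling for 11 with a median of -0.21. The difference of Cd74, -0.52 with an adjusted p of 0.312, passed without WT 48 h replicate 1 (-0.63, adjusted p = 0.0272) and with array weights (-0.59, adjusted p = 0.0449).

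**Figure D4:**
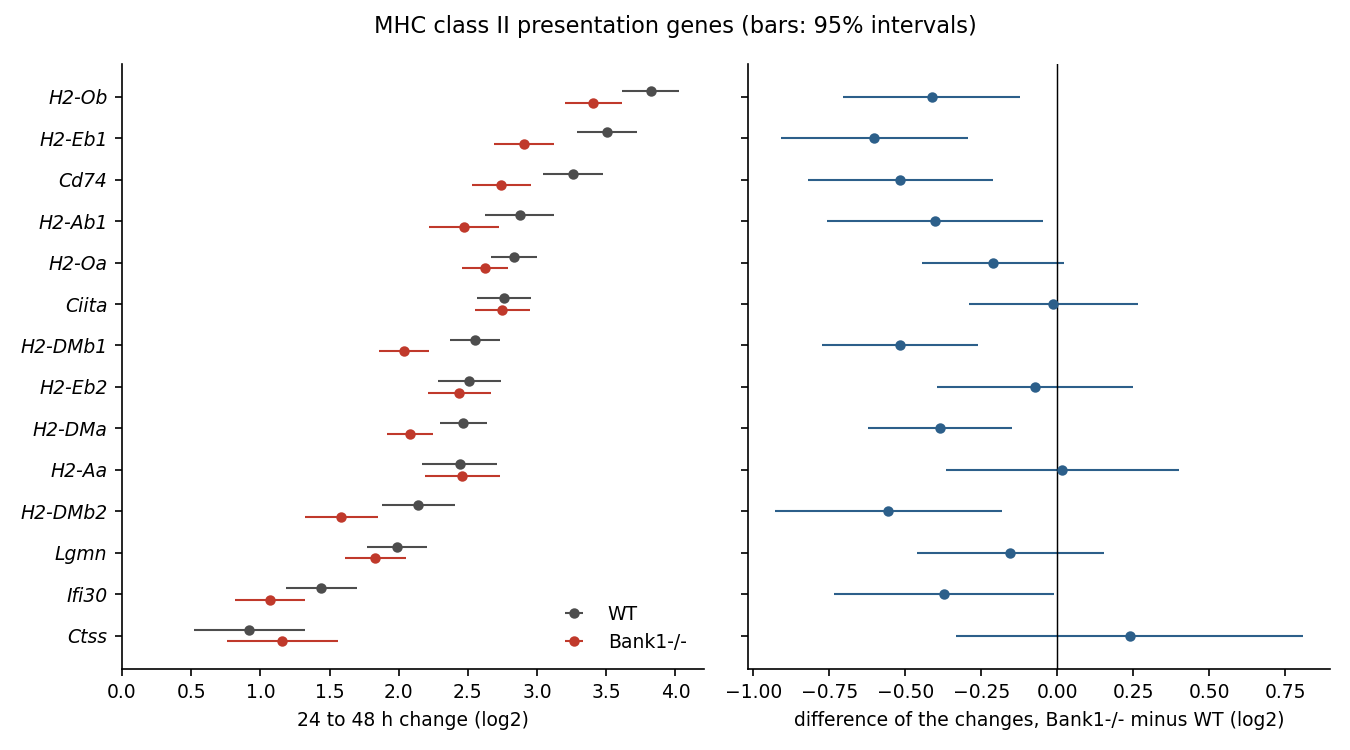
MHC class II presentation genes, with the 24 to 48 h change in WT and Bank1-/- on the left and the difference of the changes on the right, in log2 units with 95% intervals. All 14 genes rise in both genotypes. The difference is below 0 for 12 genes and its interval reaches furthest below 0 for H2-DMb2 and H2-Eb1.

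Class II promoters are known for an X box and a Y box, which the assembled complex that recruits CIITA binds. The 150 bases before the RefSeq start of 5 class II genes on chromosome 17 (GRCm38.p6) are printed because these genes rose together, with the Y box letters ATTGG and the X box letters AGCAAC, on either strand, in capitals.
H2-Eb1 (chr17:34305717-34305866, plus strand): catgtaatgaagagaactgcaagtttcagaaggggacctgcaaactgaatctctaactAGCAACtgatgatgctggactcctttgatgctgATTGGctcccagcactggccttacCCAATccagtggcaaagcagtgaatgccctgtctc
H2-Ob (chr17:34238755-34238904, plus strand): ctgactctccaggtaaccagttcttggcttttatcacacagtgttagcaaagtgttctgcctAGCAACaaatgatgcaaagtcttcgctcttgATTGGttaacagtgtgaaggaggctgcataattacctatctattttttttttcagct
H2-Oa (chr17:34092229-34092378, plus strand): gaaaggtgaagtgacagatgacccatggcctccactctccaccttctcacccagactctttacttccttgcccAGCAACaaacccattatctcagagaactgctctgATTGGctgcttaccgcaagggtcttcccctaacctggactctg
H2-Aa (chr17:34287824-34287973, minus strand): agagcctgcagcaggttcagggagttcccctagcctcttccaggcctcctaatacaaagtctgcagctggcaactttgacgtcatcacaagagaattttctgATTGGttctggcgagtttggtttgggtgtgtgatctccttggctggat
H2-DMb1 (chr17:34153041-34153190, plus strand): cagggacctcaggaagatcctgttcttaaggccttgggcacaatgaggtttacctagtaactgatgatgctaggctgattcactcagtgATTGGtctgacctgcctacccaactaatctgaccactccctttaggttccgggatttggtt

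In H2-Eb1, H2-Ob and H2-Oa both sets of letters are present, with the X box letters beginning 92, 88 and 77 bases and the nearest Y box letters downstream beginning 59, 57 and 43 bases before the start. H2-Eb1 holds a second ATTGG on the other strand, at 35 bases. H2-Aa and H2-DMb1 hold ATTGG, at 48 and 61 bases, without the exact letters AGCAAC. Only exact letters were searched, so an X box spelled otherwise would be missed. Of 11 list members with a promoter entry 8 held ATTGG and 4 held both, against 24.5% and 1.96% of 32851 promoters, and AGCAAC alone occurs in 7.75%. The genes with both sets had differences of -0.60 in H2-Eb1, -0.41 in H2-Ob, -0.21 in H2-Oa and -0.07 in H2-Eb2.

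Genes of mature B cell identity rose with class II. Of 34 measured genes 28 rose and 1 fell in WT, and 29 rose and 0 fell in Bank1-/-, with medians of 1.51 and 1.45. Vpreb3 led. Klf2, a factor of resting lymphocytes, changed by 3.32 and 3.01, the chemokine receptor gene Ccr6 by 3.10 and 3.08, and the SRC family kinase gene Blk by 2.90 and 2.66. Vpreb3 also had the smallest p of the difference, with an adjusted p of 0.462.

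Receptor signalling genes, among them partners of BANK1, rose in their majority, though Lyn and Itpr1 were not among the genes tested. Of 33 measured genes 25 rose and 3 fell in WT and 26 rose and 2 fell in Bank1-/-, with medians of 0.56 and 0.71. The lectin receptor gene Cd22 changed by 2.14 and 2.11, and the inhibitory Fc receptor gene Fcgr2b by 1.87 and 1.66. Pik3ip1, a negative regulator of PI3 kinase, was not detected at 24 h in either genotype. Cblb, an E3 ubiquitin ligase, had the smallest p of the difference, with 0.56 in WT, 0.97 in Bank1-/- and an adjusted p of 0.514.

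The measured genes listed as immediate early, a class that rises within minutes of a stimulus, were higher at 48 h. All 13 measured of 25 listed rose in WT and 11 in Bank1-/-, with medians of 1.32 and 1.33. Fosb, Nr4a1 and Ier2 were among the members not measured. The largest WT rise in the list was that of Klf2, named above as a factor of resting lymphocytes. Egr3 changed by 3.20 and 3.10, Btg1, an antiproliferative gene, by 2.02 and 2.24, and Egr1 by 1.89 and 1.96. Jund had the smallest p of the difference, with an adjusted p of 0.549.

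Interferon-inducible genes rose in both genotypes, 39 of 51 measured in each, with 5 falls in WT and 7 in Bank1-/- and medians of 0.76 and 0.83. Ifi27l2a changed by 3.14 and 3.10. Sp100, of nuclear bodies, changed by 2.15 and 2.08, Trim30a, an inhibitor of Toll-like receptor signalling, by 1.93 and 1.98, and Samhd1, which breaks down deoxynucleotides, by 1.72 and 1.87. The list's smallest p of the difference was that of Gbp3. The median difference was 0.05, with 31 positive and 20 negative.

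Within the p38, MNK and eIF4E pathway, 19 of 41 measured genes rose and 9 fell in WT and 21 rose and 4 fell in Bank1-/-. The eIF4E binding protein genes moved apart from each other: Eif4ebp1 changed by -1.77 in WT and -1.83 in Bank1-/-, and Eif4ebp2 by 1.83 and 1.95. Zfp36, whose protein destabilizes cytokine mRNA, changed by 1.84 and 1.73, and the helicase gene Eif4a1 by -1.69 and -1.54. Eif4e was the 1 member that passed for the difference.

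Cytokine and chemokine genes split. Of 16 measured of 38 listed, 9 rose and 4 fell in WT and 11 rose and 5 fell in Bank1-/-. Ccl4, a chemokine for T cells and monocytes, changed by 2.33 and 2.53, and Il12a by 1.90 and 1.56. Ccl5, another chemokine gene, had the smallest p of the difference, with levels of 6.24 to 6.46 and 6.14 to 6.52 in WT and 6.14 to 6.50 and 6.68 to 6.91 in Bank1-/- at 24 and 48 h. The Bank1-/- 48 h arrays lay above all other groups and were all detected, while Ccl5 was detected on 3 and 4 of 5 WT arrays and on 2 of 5 Bank1-/- 24 h arrays. The fitted rise was 0.51 in Bank1-/-, the gene was not called in WT, and the difference of 0.51 did not pass (adjusted p = 0.151).

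Of 40 measured NF-kB and Toll-like receptor response genes 27 rose and 9 fell in WT and 24 rose and 4 fell in Bank1-/-, with medians of 0.52 and 0.49. Socs3, which restrains cytokine signalling, changed by 2.23 and 2.43, Bcl3, an atypical IkB protein gene, by 2.13 and 2.09, and Marcksl1 by 1.82 and 1.74. The costimulatory receptor gene Cd40 had the smallest p of the difference, with -0.32 in WT, -0.01 in Bank1-/- and an adjusted p of 0.459.

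Of 30 listed plasma cell genes 22 were measured, and Sdc1, Tnfrsf17 and the immunoglobulin genes Ighm, Igha, Ighg1 and Igkc were not among them. The measured genes rose moderately, 18 in WT and 17 in Bank1-/-, with medians of 0.64 and 0.72. Cd93 changed by 1.86 and 2.17, Lax1 by 1.51 and 1.71, Zbtb20 by 1.37 and 1.43, and Irf4, a regulator of the switch to secretion, by 1.32 and 1.33. Mzb1, an ER protein of B cells, had the smallest p of the difference, with 0.41 in WT, 0.09 in Bank1-/- and an adjusted p of 0.460. Genes of ER folding and secretion were split, with 12 rises and 11 falls among 36 in WT and 11 and 10 in Bank1-/-. Sec24d, of transport vesicles, changed by 1.92 and 1.83 there, and Ddost, of N-glycosylation, by -1.26 and -0.85 (adjusted p of the difference 0.452).

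Survival genes shifted to both sides. Of 26 measured, 16 rose and 5 fell in WT and 14 rose and 3 fell in Bank1-/-. Trp53inp1, a p53 target, changed by 3.09 and 2.92, Bcl2l11, which encodes the death-promoting BIM, by 2.11 and 1.73, and Birc2, an inhibitor of apoptosis, by 1.53 and 1.59. The 3 detected Bcl2l11 probes disagree, since the others gave 0.91 and -0.24 in WT. Other Birc2 probes gave 0.16, 0.81 and 1.13 in WT. Cdkn1a, the p21 inhibitor of the cell cycle, had the smallest p of the difference, with -0.39 and 0.11 and an adjusted p of 0.340.

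Glycolysis and hypoxia genes rose in 13 of 24 in each genotype, with Aldoc first, Bnip3l, of mitochondrial clearance, 4.11-fold and 2.83-fold up, and Kdm3a, a histone demethylase, at 1.94 and 1.85. The difference was negative in 21 of 24 with a median of -0.13, and under median scaling in 16 with a median of -0.05. In the main setting it was nearest the threshold for Ankrd37, a target of the hypoxia factor. Ankrd37 changed by 3.35 in WT and 2.45 in Bank1-/-, with an adjusted p of the difference of 0.286. Respiratory chain genes fell in 21 of 40 in WT and 26 in Bank1-/-, with Cycs, cytochrome c, at -1.23 and -1.30, but under median scaling in 5 and 7. Class switching and germinal centre genes fell in 9 of 17 and 7 of 17, with Ung, the uracil glycosylase of antibody diversification, at -2.19 and -2.13, while Irf8 changed by 1.38 and 1.49. Cholesterol and fatty acid genes rose in 8 and fell in 5 of 23 in WT, and rose in 9 and fell in 3 in Bank1-/-. No member of these 4 lists passed for the difference.

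Markers of B cells and of other cells were read as a check of the label. Of 7 B cell markers 5 were measured, with a mean log2 level per array of 8.98 to 9.21 at 24 h and 10.15 to 10.54 at 48 h over both genotypes. Of 10 T cell markers 2 were measured, Cd8b1 and Lat, and the CD3 genes were not among the genes tested. Of 8 NK cell markers only Prf1 was measured, at 9.40 to 10.99 at 24 h and 10.69 to 11.94 at 48 h, with a difference of 0.00. Of 13 myeloid markers 3 were measured, at mean levels of 6.25 to 6.80, and Lyz1 was the 1 called for the difference. Of 8 dendritic cell markers 2, of 8 platelet markers 1 and of 12 erythroid markers 2 were measured. The erythroid pair had a mean level of 7.98 to 8.26 in WT and 8.33 to 9.18 in Bank1-/- at 24 h, and of 8.71 to 9.79 and 8.34 to 8.96 at 48 h. Their part in the results was not tested, and in such bulk samples fewer cells of a type and less RNA per cell cannot be told apart.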

How the data were processed

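RNA of the cultures was amplified, labelled with biotin and hybridised to Illumina bead arrays, per the labels' protocols. The authors deposited 1 table of probe intensity that is not normalized, per the file headers, and 1 table of log2 values, all arrays of which share 1 distribution and whose processing is not given in the sources used here; it served as an alternative. Detection p-values were not used here. There were 8 columns that matched no sample and were left out.

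From the raw intensities of the 20 arrays, background was corrected with normexp (offset 50) and arrays were quantile-normalized in limma 3.58.1 (R 4.3.3). A probe was kept if it exceeded the 99th percentile of 1287 olfactory receptor probes on at least 5 of 20 arrays, and each gene took its probe with the highest mean. The platform annotation gave 1 symbol to 34885 of 45281 probes, several to 18 and none to 10378, and those with 1 symbol were used. One linear model with 4 group means (16 residual degrees of freedom) gave both changes and their difference, with empirical Bayes moderation, two-sided p-values and Benjamini-Hochberg adjustment over 8861 genes, called under 0.05. The model was tested on simulated data. Intervals are 95% and errors are standard errors unless named. Where a group had no detected array, the fold is a lower bound. The number of arrays limits the precision, and each p-value sets a change against the spread between arrays within the groups. What that spread covers is not known, since the labels do not say whether a replicate is an animal.

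The named genes were Bank1, Il6, Eif4e, Max and Nnt; the 10 with the smallest p of the difference; the 5 largest differences in each direction among genes called in a genotype; the 8 largest shared rises and falls; genes called in opposite directions; and, per list, up to 4 members with the largest mean change and the one with the smallest p of the difference. The members and lists were chosen with earlier results of these data known. Promoters and positions are RefSeq, GRCm38.p6. Same-numbered arrays did not deviate together in every pair, so numbers were not used as pairs.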

Additional observations from a re-analysis of the deposited data

Results flagged for a closer look

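The difference of the 24 to 48 h change, tested as an interaction of genotype and time in limma, passed for 8 genes. It was -2.08 for Erdr1, -1.44 for Slc15a2, -1.18 for 1700048O20Rik and -0.62 for Gh, where WT changed more upward, and 1.12 for Eif4e, 1.07 for Gbp2b, 0.97 for Csprs and 0.54 for Lyz1, where Bank1-/- did. The values for Gh and Lyz1 are fitted from 24 h levels not above the detection threshold and are no measure of size. Those for Slc15a2, Eif4e and Gbp2b also rest on a group near that threshold. Slc15a2 was detected on 1 of 5 WT 24 h arrays and Eif4e on 1 of 5 Bank1-/- 24 h arrays. The WT levels of Gbp2b lay near the threshold at both times.

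Single arrays stood far from the other 4 of their group in 4 of 72 sets of values examined, and chance alone gives about 1 in 20. WT 48 h replicate 1 lay at -25.5 on the third principal component. The same array was the highest of its group for 1700048O20Rik, at 8.56, and the lowest for Erdr1, at 11.84. WT 24 h replicate 3 was the lowest of its group for Il6, at 9.60.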

How the results depend on the processing

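Agreement between the genotypes was close under every alternative that gave it, with r from 0.949 to 0.970 when 1 array was left out, and the count for the difference was small throughout. It was 6 to 11 with 1 array left out, while the WT count was 5751 to 6128 and the Bank1-/- count 5729 to 6057. Median scaling gave 3921 calls in Bank1-/- and 0 for the difference in limma (106 at an unadjusted p under 0.05). Probes detected on all arrays left 6298 genes and 3 calls for the difference. Testing all 14191 detected probes gave 9470 calls in WT and 9349 in Bank1-/-. A model of all 40 arrays gave 4 calls for the difference and array weights 25; the cause was not tested. With all 40 arrays the WT change of Hspa4l reversed to 0.0648 (-0.45 in the main setting), because another of its probes then had the highest mean, and the difference of Slc15a2 was -1.41 but not called (adjusted p = 1.00). With a replicate block the difference passed for 6 genes (number shared by the genotypes) or 7 (number within a genotype). Gh lost its call in 12 of 33 alternatives and Lyz1 in 20. Among the alternatives that tested them, Erdr1, Gbp2b, Eif4e and 1700048O20Rik lost their calls under median scaling alone. Csprs lost its call there and with all 40 arrays (adjusted p = 0.0894). Eif4e and Gbp2b were not detected on every array, so the setting with probes detected on all arrays did not test them. Probes near the background limit what Eif4e, Gbp2b, Slc15a2, Max, Gh and Lyz1 can show.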
